A study of Caenorhabditis elegans with 48 samples.

Results

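Regions of the C. elegans genome that carried peaks of LIN-35 and HPL-2 in the intestine, without a peak of EFL-1 in any tissue, are described here. Peaks of 23 libraries that overlapped by at least 1 bp were merged into 24318 regions, and 534 of them were chosen by their peak calls. Each of the 534 had a peak in at least 1 intestinal LIN-35 library and in at least 2 of the 3 intestinal HPL-2 libraries. None had a peak in the 6 EFL-1 libraries, and none had a peak in both somatic LIN-35 libraries. The LIN-35 and HPL-2 clauses alone were met by 2468 regions, of which 1845 held an EFL-1 peak and 89 were left out for their somatic LIN-35 peaks. The 1845 regions with EFL-1 serve as the nearest comparison. Peak calls of the intestinal LIN-35 and HPL-2 libraries, of the EFL-1 libraries and of the somatic LIN-35 libraries are therefore given as descriptions, with no test.

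All 11 strains carried a tagged genomic copy of a single gene, with GFP and FLAG at the C terminus and the gene's own 3' UTR, introduced by bombardment into unc-119(ed3) worms together with a rescuing unc-119 copy. In the intestinal strains, assayed as fed L1 larvae, the ges-1 promoter drove LIN-35 (YL398), HPL-2 (YL416), DPL-1 (YL448) or EFL-1 (YL418). In the somatic strains, also assayed as fed L1 larvae, each gene's own promoter drove LIN-35 (YL409), DPL-1 (YL425) or EFL-1 (YL424), so these animals express the fusion in the intestine as well as in other tissues. In the germline strains, assayed as young adults, the pie-1 promoter drove LIN-35 (YL402), DPL-1 (YL390) or EFL-1 (YL445), and the mex-5 promoter drove LIN-35 (YL468). Chromatin was precipitated from whole animals with an antibody to GFP, so tissue is set by the promoter and not by dissection. Each strain is represented by 2 libraries, except intestinal HPL-2 with 3. Stage and promoter change together between the germline and the other strains and cannot be told apart. The untagged endogenous copies of these genes are not read by the antibody.

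LIN-35 is the worm's only Rb-like pocket protein. EFL-1 is an E2F protein and DPL-1 its DP partner, and together they bind DNA as a heterodimer that brings LIN-35 to promoters within the DRM complex. HPL-2 is a homolog of heterochromatin protein HP1, which binds methylated lysine on histone H3 and is best known for gene silencing. Both lin-35 and hpl-2 belong to the SynMuv B genes, which keep somatic cells such as those of the intestine from expressing germline genes. The worm intestine is the main organ of digestion, fat storage and yolk production, and GATA factors such as ELT-2 switch on most of its genes. The libraries were made to compare where these factors bind in different tissues, and the regions described here are a class defined afterwards from the peak calls.

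Short sequences were available for 33 of the 534 regions, from the search for shared motifs that the study ran on its intestine-specific sites. These sites were chosen on the same libraries, so the sequences are not independent of the peak calls. The 33 regions held 38 such sequences, of which 19 belonged to a GATA motif, 18 to a GA-rich motif and 1 to a motif that resembles the E2F site, and 4 regions held both of the first kinds. The GATA sequences of the regions that rank highest by their weakest peak are shown because they carry the core that intestinal GATA factors read. Each line gives the nearest gene where one was listed, the WS180 coordinates of the merged region and the listed strand, and capitals mark the motif match, written 5′ to 3′.
Region with no gene taken, V:18577260-18577899, minus strand: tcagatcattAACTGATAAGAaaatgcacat
spp-8, IV:8481360-8481663, plus strand: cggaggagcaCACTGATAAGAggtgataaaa
srz-62, IV:3899855-3900238, minus strand: agacttgtatAAATGATAACAca
pcp-1, III:7758509-7758952, minus strand: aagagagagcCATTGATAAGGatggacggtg
Y105C5A.24, IV:15849631-15850059, plus strand: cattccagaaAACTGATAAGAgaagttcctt
lro-1, X:6271656-6272202, plus strand: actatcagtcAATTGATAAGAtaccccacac
clec-78, IV:3988686-3989006, plus strand: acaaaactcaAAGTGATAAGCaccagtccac

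All 7 lines share the letters TGATAA within the capitals. The same 6 letters, searched on both strands with no other motif overlapping them, were found in 19 of the 19 GATA sequences and in 0 of the 18 GA-rich sequences of the 534 regions. At the study's other intestine-specific sites 9 of 12 GATA sequences and 1 of 65 GA-rich sequences held them. Among all other 888 sequences of that search, over all its tissue classes, 17 held TGATAA (1.91%). Outside the intestine-specific list the share was 0.876% of 799. A motif search returns the letters that define it, so the 19 of 19 describes the GATA motif and does not measure how often these letters occur in the 534 regions as a whole. The WS180 genome was not used here, so such a share could not be computed.

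The other kind of sequence was rich in G and A on the listed strand and had no fixed core. Examples are shown because 2 of the regions, at pcp-1 and Y105C5A.24, held both kinds, and because the region at gda-1 held the only E2F-like sequence of the 38.
gda-1, III:11026553-11026894, minus strand, GA-rich: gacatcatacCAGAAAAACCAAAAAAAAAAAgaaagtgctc
gda-1, III:11026553-11026894, minus strand, E2F-like: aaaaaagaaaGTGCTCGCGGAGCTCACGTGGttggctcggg
pcp-1, III:7758509-7758952, minus strand, GA-rich: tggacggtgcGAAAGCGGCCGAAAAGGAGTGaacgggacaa
Y105C5A.24, IV:15849631-15850059, minus strand, GA-rich: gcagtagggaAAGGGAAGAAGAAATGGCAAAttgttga
mfsd-8.1, IV:17245103-17245580, minus strand, GA-rich: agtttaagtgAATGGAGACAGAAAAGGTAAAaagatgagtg
kola-4, X:14214471-14214819, plus strand, GA-rich: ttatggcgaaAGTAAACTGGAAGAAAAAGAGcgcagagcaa

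The sequences shown come from the regions ranked highest by their weakest peak, which had peaks in 5 to 7 libraries each. At gda-1 the q-values, which PeakSeq gives to each peak against input DNA, were 2.05e-18 and 1.70e-05 for LIN-35 and 2.48e-06, 5.81e-04 and 8.51e-05 for HPL-2, and no other library had a peak. At pcp-1, a carboxypeptidase gene, they were 1.72e-08 and 3.02e-03 for LIN-35 and 9.39e-04, 7.44e-04 and 2.12e-03 for HPL-2, again with no other library. The region at mfsd-8.1 was stronger for LIN-35, with 4.68e-26 and 5.18e-06, and also had a DPL-1 peak of 1.08e-05 in the first intestinal DPL-1 library. LIN-35 replicate 1 thus gave the smallest q-value of the LIN-35 and HPL-2 libraries at each of these 3 regions.

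Libraries differed widely in the number of peaks, and the selection leans on the long lists. The 23 lists held 558 to 7556 peaks, 85924 in all, with q-values up to 0.01. Intestinal LIN-35 replicates 1 and 2 had 7283 and 2125 peaks, and HPL-2 replicates 1, 2 and 3 had 6960, 1707 and 4684. The intestinal EFL-1 libraries were short, with 1988 and 1249 peaks, so the absence of an EFL-1 peak means that none was called at these depths, not that EFL-1 is absent. All 3 HPL-2 libraries and LIN-35 replicate 1 carry the same date in their titles, whereas LIN-35 replicate 2 has a later date. The labels list an input sample for HPL-2 replicates 1 and 2 and none for replicate 3, so the input used for its peaks is not known. The paper's list of replicates used in its analyses names intestinal HPL-2 replicates 1 and 2 and not replicate 3. HPL-2 replicate 3 had a peak in 466 of the 534 regions. The 3 HPL-2 lists shared 0 identical peaks. At pie-1 and mex-5, whose promoters other strains of the series carry as transgenes, several L1 libraries had peaks. At pie-1 these were HPL-2 replicate 2 (q = 3.76e-25), intestinal DPL-1 replicate 2 (2.39e-32), intestinal EFL-1 replicates 2 and 3 (4.19e-08 and 7.06e-17), somatic DPL-1 replicate 2 (3.31e-34) and somatic EFL-1 replicate 2 (3.68e-06). At mex-5 they were HPL-2 replicate 3 (7.13e-38) and intestinal EFL-1 replicate 3 (1.01e-04). The part of these peaks in the results was not tested. Without HPL-2 replicate 2 the count of regions was 446, without replicate 3 it was 155, and without replicate 1 it was 111. Without LIN-35 replicate 1 it was 209 and without LIN-35 replicate 2 it was 530. Of the genes and promoters carried by the transgenes, lin-35, dpl-1, unc-119, pie-1 and mex-5 were each listed at 1 merged region, and none of these was among the 534. The ges-1, hpl-2 and efl-1 loci were listed at 0 merged regions. Genes were read only from the study's site lists, without chromosome V, so whether these loci lay among the 534 is not known.

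LIN-35 replicate 1 had a peak in 530 of the 534 regions (99.3%) and replicate 2 in 204 (38.2%). HPL-2 replicates 1, 2 and 3 had peaks in 514 (96.3%), 175 (32.8%) and 466 (87.3%). In the regions with EFL-1 the same 5 libraries had peaks in 99.3%, 61.2%, 99.2%, 52.8% and 87.0%. Most of the 534 regions, 307, met the rule with 1 LIN-35 and 2 HPL-2 libraries, while 140 had both LIN-35 and 2 HPL-2 libraries, 27 had 1 and 3, and 60 had all 5. The commonest set of libraries was LIN-35 replicate 1 with HPL-2 replicates 1 and 3 and intestinal DPL-1 replicate 1, in 98 regions, and the same set without DPL-1 was found in 69. The regions had peaks in a median of 4 libraries (range 3 to 8), against 14 in the regions with EFL-1 and 1 in all merged regions. The share of regions with a peak in each library is plotted for the 3 sets.

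**Figure D1:**
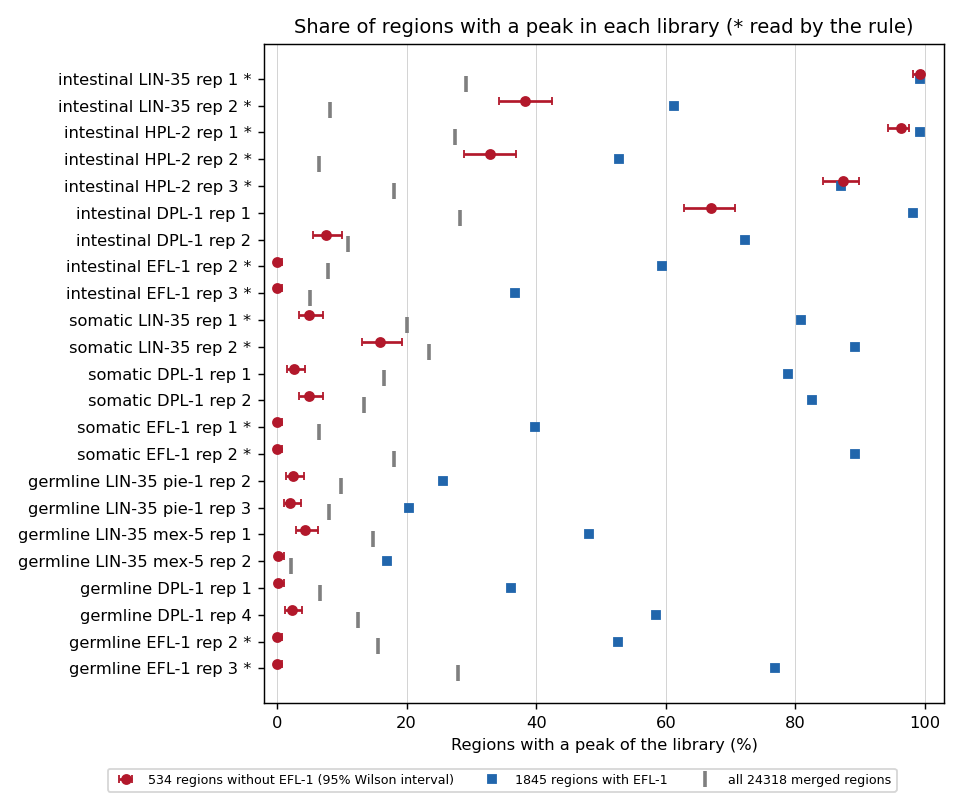
Share of regions (%, x axis) with a peak in each of the 23 libraries, for the 534 regions without EFL-1 (red circles, bars are 95% Wilson intervals), the 1845 regions with EFL-1 (blue squares) and all 24318 merged regions (grey ticks). Libraries with an asterisk were read by the selection, so their shares are fixed in part by it. The shares of the other libraries are not free of it either. Among the others, intestinal DPL-1 replicate 1 reached 66.9% of the 534 regions, and every other library stayed at or below 7.49%.

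Peaks in these regions were weaker than in the regions with EFL-1. The median q-value of LIN-35 replicate 1 was 1.54e-09 in the 534 regions, against 1.39e-30 in the regions with EFL-1 and 2.79e-09 in all merged regions. For HPL-2 replicate 1 it was 5.79e-06, against 2.40e-14 with EFL-1 and 8.61e-06 in all. The shorter lists showed the same order between the first and the second set, with 0.00150 against 7.73e-06 for LIN-35 replicate 2, 0.00296 against 7.99e-04 for HPL-2 replicate 2 and 8.42e-04 against 1.32e-04 for HPL-2 replicate 3. In all merged regions the medians were 1.52e-04 for LIN-35 replicate 2, 0.00202 for HPL-2 replicate 2 and 6.16e-04 for HPL-2 replicate 3. The 534 regions were thus clearly weaker than all merged regions in LIN-35 replicate 2 only, and close to them in the other LIN-35 and HPL-2 libraries. Where the first replicates of both factors had a peak, LIN-35 had the smaller q-value in 360 of 510 regions (70.6%, 95% Wilson interval 66.5 to 74.4), against 81.9% of the regions with EFL-1.

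The regions with a peak in all 5 LIN-35 and HPL-2 libraries, ranked by their weakest peak, show the range of strengths. The highest ranked lay on chromosome V from 20157209 to 20160385, 3177 bp wide, with q-values of 8.52e-105 and 4.27e-07 for LIN-35 and 9.67e-108, 8.79e-20 and 7.31e-08 for HPL-2. HPL-2 was as strong as LIN-35 there, and the only other peak was intestinal DPL-1 replicate 1 (q = 2.04e-11). A region of 781 bp on chromosome IV from 14593934 to 14594714 followed, with 1.86e-41 and 4.17e-13 for LIN-35, and 1.77e-40, 3.25e-05 and 3.13e-19 for HPL-2. It also had peaks of both intestinal DPL-1 libraries (1.78e-17 and 7.79e-04) and of somatic LIN-35 replicate 2 (1.50e-04).

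Other regions of this kind were stronger for LIN-35. On chromosome II from 11149799 to 11152440 the q-values were 1.03e-67 and 4.13e-05 for LIN-35 and 1.68e-32, 4.77e-07 and 5.91e-06 for HPL-2. Next to it lay another of the 534 regions, on chromosome II from 11152805 to 11154118, which was listed for pqm-1, a zinc finger transcription factor of intestinal stress and metabolic responses. On chromosome X from 6606882 to 6609342 LIN-35 had 4.53e-47 and 3.97e-10 and HPL-2 3.74e-04, 2.41e-05 and 5.50e-05, with a germline LIN-35 peak of 5.92e-03 from the mex-5 promoter. H28G03.2, on chromosome X from 5212781 to 5214064, was the only gene taken at the 8 highest ranked regions. No genes were read for those on chromosome V. All 8 had a peak of intestinal DPL-1 replicate 1.

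**Figure D2:**
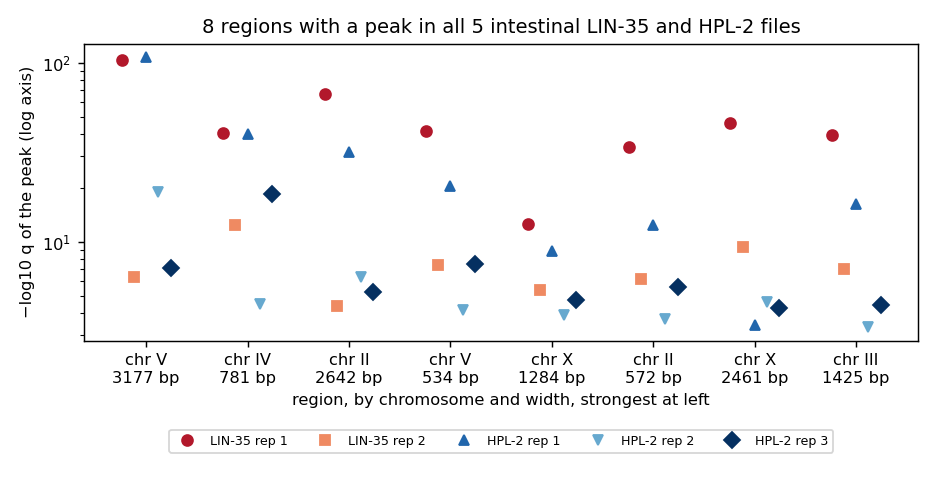
Negative log10 of the q-value (y axis, log scale) of each intestinal LIN-35 and HPL-2 library in the 8 highest ranked regions with a peak in all 5, labelled by chromosome and width. LIN-35 replicate 1 was the strongest library in 7 of the 8 regions, and HPL-2 replicate 1 in the region of 3177 bp on chromosome V.

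Genes were listed at 72 of the 111 regions that matched a site of the study outside chromosome V (64.9%, 95% Wilson interval 55.6 to 73.1), against 85.1% of matched regions with EFL-1. These site lists cover sites that the study had placed in tissue classes, so the gene counts below describe the listed sites alone and are not independent of the selection. Of all 2402 genes on these lists outside chromosome V, 79 (3.29%) lay at the 534 regions and 1202 at regions with EFL-1. Of 14 genes of fatty acid metabolism on the lists, 7 lay at the 534 regions (dhs-28, elo-2, elo-6, fat-3, nlt-1, pmp-1 and pmt-1) and 5 at regions with EFL-1. Of 16 genes of lumen proteins and immunity 5 lay at the 534 regions and 3 at regions with EFL-1, and of 22 nuclear receptor and intestinal transcription factor genes 5 and 11. None of 12 genes of glucose and energy metabolism, of 3 stress genes of the endoplasmic reticulum and heat response or of 17 germline genes lay at the 534 regions. At regions with EFL-1 lay 7, 3 and 1 of them. With 3.29% of all listed genes at the 534 regions, lists this short hold few or none, so these zeros are not read as absence. No test was made of these counts. The study listed fat-3, elo-2, tir-1, pqm-1 and nhr-119 with low confidence, at 1239, 543, 1536, 840 and 1844 bp from the gene start.

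Genes that make and modify fatty acids had regions of moderate strength. At fat-3, a desaturase gene of the pathway to polyunsaturated fatty acids, the region on chromosome IV from 9801451 to 9801853 had LIN-35 q-values of 4.54e-12 and 3.56e-06 and HPL-2 q-values of 7.39e-04, 1.37e-03 and 9.06e-03. At elo-6, a fatty acid elongase gene, the region on chromosome IV from 5387997 to 5389295 had 1.92e-25 and 1.71e-04 for LIN-35 and 2.73e-17 and 2.26e-03 for HPL-2 replicates 1 and 3. Both also had a peak of intestinal DPL-1 replicate 1 and of no further library. A second elongase gene, elo-2, had weaker peaks on chromosome IV from 17467389 to 17468418, with 1.18e-03 for LIN-35 replicate 1 and 1.54e-03, 8.98e-04 and 4.31e-03 for HPL-2. There somatic LIN-35 replicate 2 (5.84e-04) and germline LIN-35 from the pie-1 promoter (2.60e-04) were stronger than the intestinal peaks.

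Regions at genes of peroxisomes and phospholipids had 2 HPL-2 peaks each, the fewest that the selection allows. At nlt-1, a lipid transfer protein gene, on chromosome II from 10000888 to 10001406, LIN-35 replicate 1 had 3.47e-21 and HPL-2 replicates 1 and 2 had 6.95e-03 and 7.34e-03. At pmt-1, which encodes a methyltransferase of phosphocholine synthesis, on chromosome II from 5282072 to 5283289, LIN-35 replicate 1 had 1.33e-08, HPL-2 replicates 1 and 2 had 2.42e-08 and 1.87e-03, and both intestinal DPL-1 libraries had a peak (8.62e-07 and 6.93e-03). At dhs-28, which acts in peroxisomal beta-oxidation, on chromosome X from 6817950 to 6818506, LIN-35 replicate 1 had 5.11e-08 and HPL-2 replicates 1 and 2 had 3.63e-03 and 6.02e-03. Only pmp-1, a peroxisomal transporter gene, on chromosome II from 6883677 to 6883980, lacked a DPL-1 peak among the 7 genes.

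Regions at genes of lumen proteins and immunity were narrow and mostly free of other libraries. The spp-8 and spp-18 genes encode saposin-like proteins, a family with antimicrobial members, clec-78 a C-type lectin and nas-29 a metalloprotease of the astacin family. Regions at these 4 genes were 284 to 382 bp wide (spp-8 304, spp-18 284, clec-78 321, nas-29 382) and had no peak outside intestinal LIN-35 and HPL-2. LIN-35 had 8.07e-12 and 3.46e-05 at spp-8 and 2.48e-11 and 3.98e-04 at clec-78. HPL-2 had 2.28e-05, 2.96e-03 and 4.01e-04 at spp-8 and 1.31e-03, 4.33e-03 and 4.53e-05 at clec-78. The exception was tir-1, an adaptor gene of innate immune signalling, with a region of 2839 bp on chromosome III from 3871697 to 3874535, q-values of 6.71e-32 for LIN-35 replicate 1, 3.96e-12 and 1.46e-03 for HPL-2 replicates 1 and 3, and a DPL-1 peak of 8.01e-05.

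Transcription factor genes at these regions were ets-4, egl-44, nhr-32, nhr-119 and pqm-1. At ets-4, an ETS factor gene expressed in the intestine, on chromosome X from 6518457 to 6519033, LIN-35 had 2.68e-17 and 1.64e-04, HPL-2 had 6.74e-03, 1.88e-04 and 3.88e-03, and intestinal DPL-1 replicate 1 had 4.66e-08. At egl-44, a TEAD factor gene, on chromosome II from 5935810 to 5936463, LIN-35 had 2.00e-13 and 5.69e-03 and HPL-2 replicates 1 and 2 had 5.44e-07 and 2.03e-03. At pqm-1 LIN-35 had 3.49e-19 and 8.64e-03 and HPL-2 replicates 1 and 2 had 4.54e-03 and 2.72e-04. Neither egl-44 nor pqm-1 had a DPL-1 peak in its region.

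Genes of the brush border and of cell junctions also appeared, and these were singled out after their values were seen. The region at act-5, the actin of intestinal microvilli, on chromosome III from 13605972 to 13606376, had 5.57e-25 and 2.51e-04 for LIN-35 and 4.03e-05 and 4.60e-03 for HPL-2 replicates 1 and 3. At ifo-1, which organises intermediate filaments of the intestine, on chromosome IV from 7326731 to 7327147, LIN-35 had 6.94e-09 and 8.94e-03 and HPL-2 had 5.80e-06, 1.37e-03 and 3.48e-03. At dlg-1, a junction scaffold gene, on chromosome X from 5478910 to 5480823, LIN-35 had 1.77e-39 and 2.64e-08 and HPL-2 replicates 1 and 2 had 1.84e-14 and 6.05e-03. Of these 3, ifo-1 had peaks of intestinal LIN-35 and HPL-2 only, while act-5 and dlg-1 also had a DPL-1 peak.

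Intestinal DPL-1 was not read by the selection. The selection required peaks of other intestinal L1 libraries and barred EFL-1, the partner of DPL-1, so the shares of intestinal DPL-1 are set in part by it. The first intestinal DPL-1 library had a peak in 357 of the 534 regions (66.9%, 95% Wilson interval 62.8 to 70.7), where 28.28% of all merged regions had a peak. The second had a peak in 40 regions (7.49%, 5.55 to 10.0), where 10.99% of all regions had a peak. Relative to all regions the 534 were thus above the background in the first library and below it in the second, which has the shorter list (2814 peaks against 7556). In the regions with EFL-1 the 2 libraries had peaks in 98.2% and 72.2%. Either library had a peak in 359 regions (67.2%, 63.1 to 71.1), against 98.3% of the regions with EFL-1 and 29.3% of all merged regions. Both libraries had a peak in 38 (7.12%), against 72.0% of the regions with EFL-1 and 10.0% of all merged regions. Regions that met the rule but for having only 1 HPL-2 library had a DPL-1 peak in 48.7%. With each list limited to its 1500 strongest peaks, a setting chosen after the data were seen, 22.4% of 170 regions had a DPL-1 peak. The share of all merged regions was not computed at that setting, so the 22.4% has no background beside it.

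DPL-1 peaks in these regions were weaker than LIN-35 peaks. The median q-value of DPL-1 replicate 1 was 2.89e-05, against 7.02e-27 in the regions with EFL-1 and 3.59e-07 in all regions. DPL-1 had a smaller q-value than LIN-35 replicate 1 in 54 of 357 regions (15.1%, 11.8 to 19.2), against 48.6% of 1811 regions with EFL-1. The 48.6% also counts regions with no LIN-35 replicate 1 peak, which the 15.1% does not. LIN-35 replicate 1 had a peak in 99.3% of all regions with EFL-1. A DPL-1 peak was more frequent where LIN-35 was strong. With the regions cut into 4 groups of 132 or 133 by the LIN-35 replicate 1 q-value, strongest first, 87.9%, 69.2%, 62.1% and 51.1% of the regions had one. Peaks of LIN-35 replicate 2 followed the same order, with 65.9%, 47.4%, 25.0% and 12.8%, and those of HPL-2 replicate 2 changed less, with 41.7%, 34.6%, 27.3% and 26.3%. Regions with a DPL-1 peak were wider, with a median of 645 bp against 482 bp in those without.

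Somatic DPL-1 was not read by the selection, but its partner somatic EFL-1 and somatic LIN-35 were, so its low shares are set in part by the selection. Its libraries had peaks in 14 (2.62%) and 26 (4.87%) of the 534 regions, against 16.51% and 13.40% of all merged regions and 78.8% and 82.6% of the regions with EFL-1. The same larval stage was assayed, and the endogenous promoter is active in many tissues. Somatic LIN-35, which the selection read, had peaks in 26 and 85 of the regions (4.87% and 15.9%), against 20.0% and 23.4% of all merged regions.

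Germline libraries also had few peaks here. LIN-35 expressed from the pie-1 promoter had peaks in 13 (2.43%) and 11 (2.06%) of the 534 regions, against 9.88% and 7.99% of all merged regions. LIN-35 from the mex-5 promoter had peaks in 23 (4.31%) and 1 (0.187%), against 14.83% and 2.11% of all. Germline DPL-1 had peaks in 1 (0.187%) and 12 (2.25%), against 6.70% and 12.53% of all. In the regions with EFL-1 the shares of these 6 libraries lay between 17.0% and 58.5%. The selection left out regions with germline EFL-1, the partner of DPL-1, so these shares are not free of it. In all, 55 of the 534 regions (10.3%, 8.0 to 13.2) had any germline LIN-35 or DPL-1 peak, against 71.8% of the regions with EFL-1, 34.3% of all merged regions and 5.81% of the regions that differ only in having a single HPL-2 library. The regions with a single HPL-2 library thus had a low germline share as well. Peaks were confined to intestinal libraries in 363 regions (68.0%, 63.9 to 71.8), against 25.3% of all merged regions and 77.1% of the regions with a single HPL-2 library. Of the regions with EFL-1 11 of 1845 were of this kind (0.596%), a share that the selection largely fixes. The share of the 534 is set in part by the selection as well, which required intestinal peaks and barred EFL-1 peaks. Peaks of intestinal LIN-35 and HPL-2 alone were found in 142 regions (26.6%), against 43.8% of the regions with a single HPL-2 library and 17.0% of all merged regions.

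The 10 libraries that the selection did not read were compared by the log2 ratio of their share in the 534 regions, with 0.5 region added to the count, to their share in all merged regions. The selection required intestinal L1 peaks and barred germline and somatic EFL-1, so differences between these libraries are set in part by it and are not read as properties of the regions. The values were 1.24 and -0.54 for intestinal DPL-1 and -2.60 and -1.43 for somatic DPL-1. They were -1.97 and -1.89 for germline LIN-35 from pie-1, -1.75 and -2.91 for germline LIN-35 from mex-5 and -4.58 and -2.42 for germline DPL-1. The 4 L1 libraries and the 6 germline libraries overlapped. L1 DPL-1 averaged -0.83 ± 1.62 (SD, n = 4) and the germline libraries -2.59 ± 1.06 (SD, n = 6), a difference of 1.75 that did not pass an exact two-sided permutation test over libraries (p = 0.0762, where the smallest possible is 0.00952). Against the germline DPL-1 libraries alone the difference was 2.67 (exact permutation p = 0.267, smallest possible 0.133). Intestinal DPL-1 exceeded somatic DPL-1 by 2.37, with 0.35 ± 1.26 and -2.02 ± 0.83 (SD, n = 2 each), and the exact permutation p of 0.333 is the smallest that 2 against 2 libraries allow.

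**Figure D3:**
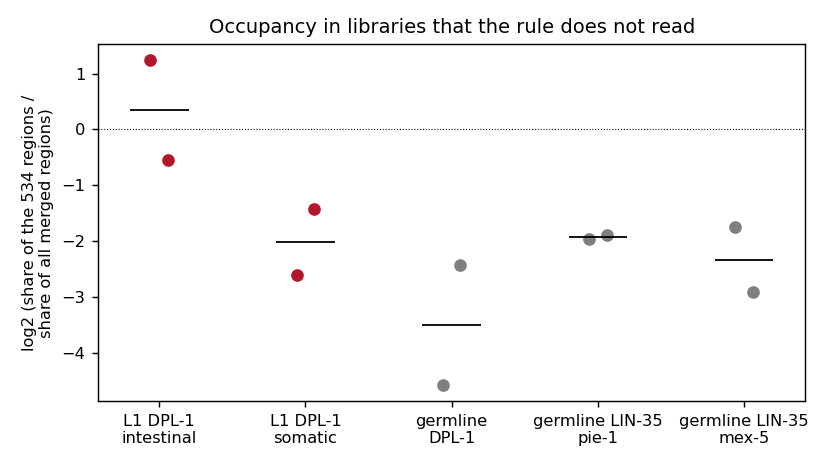
Log2 ratio (y axis) of the share of the 534 regions with a peak to the share of all merged regions with a peak, for each library that the selection did not read (points) with the group mean (bar). Intestinal DPL-1 replicate 1 alone lies above 0, at 1.24, and germline DPL-1 replicate 1 is lowest, at -4.58.

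The first comparison depended on single libraries and settings. Its difference was 1.98 with an exact permutation p of 0.00952 without somatic EFL-1 replicate 2, and 2.34 with p = 0.0238 without somatic DPL-1 replicate 1. It was 0.79 without HPL-2 replicate 1, 0.73 without HPL-2 replicate 3, 1.18 without germline EFL-1 replicate 3 and 1.05 without intestinal DPL-1 replicate 1 (exact permutation p from 0.190 to 0.419). It was 0.58 when only the EFL-1 libraries of L1 larvae were barred (p = 0.400, exact permutation test), 0.45 with peaks in all 3 HPL-2 libraries (p = 0.619, exact permutation test) and 0.74 at q below 1e-05 (p = 0.410, exact permutation test). It was 0.11 (p = 0.905, exact permutation test) with the 1500 strongest peaks of each list.

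The 534 regions were narrower than those with EFL-1. Their median width was 587 bp (95% interval 561 to 623, range 209 to 5210), against 865 bp in the regions with EFL-1 and 252 bp in all merged regions. Peaks of several libraries widen a merged region, and a wide region meets both the LIN-35 and HPL-2 clauses and an EFL-1 peak more easily, so the widths were not tested. A width of 1500 bp or more was found in 55 regions (10.3%, 8.0 to 13.2), against 22.7% of the regions with EFL-1 and 2.83% of all. The widest lay on chromosome I from 11674228 to 11679437 (5210 bp) and on chromosome V from 11818066 to 11823143 (5078 bp). In the region of 5078 bp LIN-35 replicate 1 had a q-value of 1.69e-142 and HPL-2 replicate 1 had 9.41e-84. The other wide regions were at Y42G9A.2 and wht-7 on chromosome III (4771 bp), at T15H9.1 on chromosome II (3884 bp) and at cah-4, a carbonic anhydrase gene, on chromosome X (3803 bp).

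**Figure D4:**
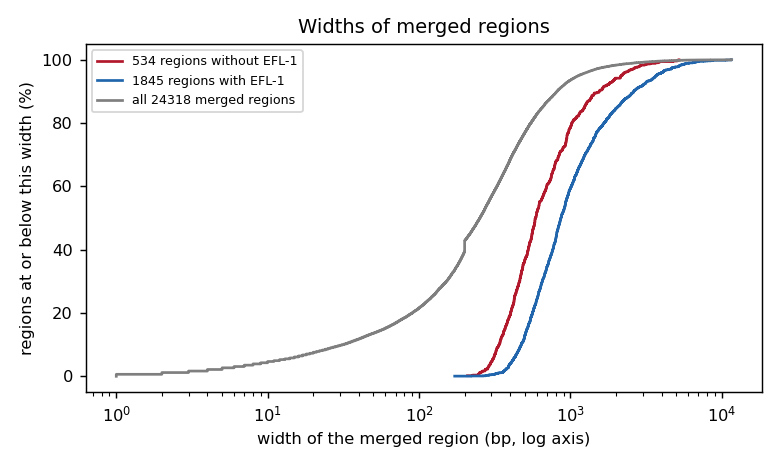
Share of regions (%, y axis) at or below a width in bp (x axis, log scale) for the 534 regions without EFL-1 (red), the 1845 regions with EFL-1 (blue) and all 24318 merged regions (grey). The red line lies between the others over most of its length, with medians of 587, 865 and 252 bp.

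Regions just outside the selection show what each clause removed. With a single HPL-2 library 1223 regions were left out, and with an EFL-1 peak in a single library 178. The strongest of the 178 lay on chromosome V from 12551441 to 12556407, with LIN-35 at 4.97e-139 and 6.02e-21 and HPL-2 at 2.19e-144, 2.59e-05 and 2.59e-20, and its sole EFL-1 peak came from germline replicate 3 (9.98e-04). Another lay at mxl-3, a Max-like factor gene of the fasting response, on chromosome X from 13349149 to 13351682, again with germline EFL-1 replicate 3 (8.17e-04). Among the 89 regions left out for both somatic LIN-35 libraries was the broad one at pnp-1, a gene of purine metabolism, on chromosome IV from 291746 to 297217. LIN-35 had 1.50e-280 and 1.60e-17 there, HPL-2 had 8.99e-153, 5.53e-10 and 1.82e-08, and the somatic LIN-35 peaks were weak (1.49e-03 and 4.90e-03). Just inside the selection, dpyd-1, a gene of pyrimidine breakdown, on chromosome X from 5467272 to 5468527, had peaks of 8 libraries, with 1 somatic LIN-35 peak (3.58e-03) and 1 germline DPL-1 peak (4.05e-03).

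EFL-1 peaks were not far from many of the regions. The median gap to the nearest EFL-1 peak was 3022 bp (range 1 to 45083), and 22.3% of the regions (19.0 to 26.0) had one within 1000 bp. For the regions with a single HPL-2 library the median gap was 3636 bp and the share 19.7%.

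Chromosome X held 102 of the 534 regions (19.1%, 95% Wilson interval 16 to 22.7), against 16.3% of the regions with EFL-1 and 18.9% of all merged regions, so the share on X was close to that of all regions. Of the regions with a single HPL-2 library 13.6% lay on X. Regions on X had a median width of 726 bp. Chromosome I held 9.55% of the 534 regions, against 11.5% of all merged regions and 23.3% of the regions with a single HPL-2 library. Chromosome V held 125 (23.4%, 20.0 to 27.2), against 297 of 1845 regions with EFL-1 and 20.3% of all, and chromosome III 79 (14.8%, 12.0 to 18.1), against 20.3% and 14.4%. The middle part of 3 equal parts of the autosomes held 48.4% of the autosomal regions (43.7 to 53.1), against 40.4% with EFL-1 and 36.6% of all. On X it held 35.3%. In the densest window of 100000 bp 7 of the regions lay together, on chromosome V from 13045902 to 13089265, among 37 merged regions of which 2 were intestinal LIN-35 and HPL-2 regions with EFL-1. Neighbouring regions are not independent, and these intervals cover counting error only.

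**Figure D5:**
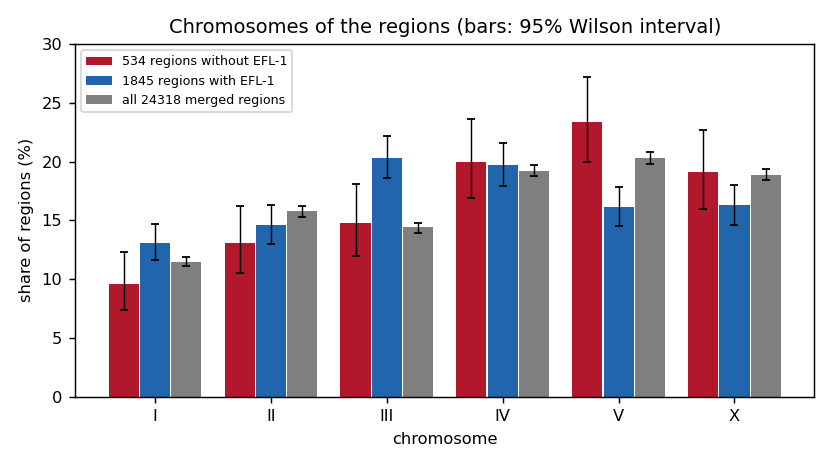
Share of regions (%, y axis, bars from 0, error bars are 95% Wilson intervals) on each chromosome for the 534 regions without EFL-1 (red), the 1845 regions with EFL-1 (blue) and all 24318 merged regions (grey). Chromosome V holds the largest share of the 534 regions, 23.4%, and chromosome III the largest share of the regions with EFL-1, 20.3%.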

How the data were processed

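The series holds 48 samples, 26 ChIP and 22 input, and 23 peak lists were read. For each library the authors ran PeakSeq against input DNA (no input sample is listed for HPL-2 replicate 3), and the deposited values are q-values up to 0.01 with WS180 coordinates. An aligner is not named in the sources used here. Read depths were not used, so precision is set by the number of peaks. The exact permutation test took the library as the replicate and treated all libraries as exchangeable. Libraries of the same strain share a transgenic line, so its p-values do not account for the spread between strains.

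All deposited peaks were merged with Python 3.11.15 (overlap of at least 1 bp), and 24318 of 24318 regions matched bedtools 2.31.1. Tested on simulated data, 500 of 500 regions that met the rule were called and 2500 of 2500 others were left out. Shares have 95% Wilson intervals (scipy 1.17.1) and medians have intervals from order statistics, and figures were drawn with matplotlib 3.10.9. Genes come from the study's site lists, whose names matched RefSeq for 2531 of 2895. Chromosome V was left out of them, because its sites were offset by a median of 173 bp (-1.50 to 3.25 bp elsewhere). Motif sequences come from the study's motif table, which labels its coordinates with another build, so their place within a region was not used.

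The members and gene lists were chosen with earlier results of these data known. Regions were named as the 8 strongest with all 5 libraries, the 5 widest, up to 4 per gene list, up to 12 with a motif sequence, up to 3 outside each clause and the transgene loci; further members of the lists, act-5, ifo-1, dlg-1 and dpyd-1 were added after their values were seen. Alternatives were stricter q-values, other clauses, another base, a 10 bp overlap and each library left out in turn.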

Additional observations from a re-analysis of the deposited data

How the results depend on the processing

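The count of regions was 292 at q below 0.001, 121 at q below 1e-05, 87 with all 3 HPL-2 libraries, 200 with both LIN-35 libraries, 204 with LIN-35 replicate 2 alone and 170 with the 1500 strongest peaks of each list (chosen after the data were seen), and 111 to 615 with a library left out, against 534. The share with an intestinal DPL-1 peak was 78.5% at q below 1e-05, 75.9% with all 3 HPL-2 libraries, 72.0% with both LIN-35 libraries, 71.1% with LIN-35 replicate 2 alone and 22.4% with the 1500 strongest peaks, and 64.4% to 73.9% with a library left out. The same share over all merged regions was not computed for the q-value limit, the 1500 strongest peaks or a library left out. The share on X was 23.0% with both LIN-35 libraries or replicate 2 alone, 25.3% with the 1500 strongest peaks and 17.3% to 22.5% with a library left out. Median widths were 751 bp at q below 0.001, 1271 bp at q below 1e-05, 559 bp with no somatic LIN-35 peak, 644 bp without that clause, 1195 bp with the 1500 strongest peaks and 475 to 599 bp with a library left out. L1 DPL-1 exceeded the germline libraries by 2.03 without the somatic LIN-35 clause (exact permutation p = 0.0381), by 2.39 relative to regions with no EFL-1 peak (a base chosen after the data were seen, exact permutation p = 0.0190) by 0.58 with only the EFL-1 libraries of L1 larvae barred, 0.45 with all 3 HPL-2 libraries, 0.74 at q below 1e-05, and by 0.73 to 2.34 with a library left out. Over all alternatives its exact permutation p lay between 0.00952 and 0.905. It exceeded germline DPL-1 by 1.59 to 3.74, and intestinal exceeded somatic DPL-1 by 1.45 to 3.26, with a library left out. The cause of these changes was not tested. With the replicate block the last difference stayed at 2.37 (exact permutation p = 0.50), from 3.85 for number 1 and 0.90 for number 2. The numbers were not known to pair libraries. Peak number per list and the q-value limit of 0.01 bound what the lists can show.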
